A study of Mus musculus with 12 samples.

Results

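KCNIP4, WDR66, FBXW10, CDRT1, FAAH, TNFRSF14, ANKK1, PRSS8 and GOLT1A were 9 genes that stood higher with both siRNAs against the splicing factor SRSF1 in U2OS cells, a human osteosarcoma cell line. They were chosen from 58735 listed genes because their RNA was high in the libraries of both siRNAs, or among the largest rises with the siRNA siSRSF1-3, against the untreated cells. The siRNA and blank libraries thus chose the genes, and the differences between these libraries are given as a description without a test. The cells overexpressing LINC01134 were not used in the choice.

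SRSF1 is a serine and arginine rich protein that binds exonic sequences of pre-mRNA and recruits the splicing machinery, and it also acts on the export, translation and decay of mRNA. Lowering such a factor can therefore change the amount of an RNA as well as its exons, and a level per gene does not tell these apart. The 9 genes have no single known function in common. They hold a receptor and a channel subunit, 2 hydrolases, a kinase-like protein, 2 paralogs of the F-box family, a Golgi protein and a protein of cilia.

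The 12 libraries formed 4 groups of 3 replicates, all from U2OS cells: blank cells, cells with siSRSF1-2, cells with siSRSF1-3, and cells with LINC01134 raised (OE-LINC01134), a long non-coding RNA. The groups shared the parental line, and no library of cells with a control siRNA was analysed here. The effect of transfection and that of each siRNA sequence thus cannot be told apart from that of losing SRSF1. Blank cells were also the only control of OE-LINC01134. The effect of the overexpression procedure thus cannot be told apart from that of LINC01134. The labels give no dose or time and do not say whether replicates came from separate cultures, so the spread between replicates may be technical. The labels call the organism mouse, but the genes carry human Ensembl identifiers.

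The values were FPKM, fragments per kilobase of gene scaled to library size, on 26237763 to 32954539 reads per library. SRSF1 itself was at an FPKM of 35.9, 19.8 and 20.5 in blank cells, 7.09, 7.46 and 7.41 with siSRSF1-2, and 3.33, 6.81 and 7.90 with siSRSF1-3. All 6 siRNA libraries were below the blank libraries. The log2 fold change was -1.72 with siSRSF1-2 (adjusted p = 0.00500, limma) and -2.09 with siSRSF1-3 (adjusted p = 0.0518, limma), which missed the threshold. LINC01134 was at 891, 1279 and 878 in the OE-LINC01134 libraries and at 0.497 to 0.791 in blank cells. Some libraries stood apart from the others of their group. The median absolute log2 difference between replicates was 0.0810 to 0.0942 for blank replicates 2 and 3, OE-LINC01134 replicates 1 and 3 and all siSRSF1-2 replicates, but 0.329 to 0.670 for every pair with blank replicate 1, with OE-LINC01134 replicate 2 or within siSRSF1-3. In siSRSF1-3 replicate 1 the FPKM had been scaled to 0.712 times the reads of the library itself, which makes its values larger than on its own total. Osteoblast and mesenchymal markers summed to an FPKM of 322 to 439 in blank cells, carried by VIM (207 on average), SPARC (72.8) and SPP1 (49.6). COL1A1 (29.1), ALPL (5.66) and RUNX2 (3.55) were lower. The rest of the list, IBSP (0.0154), BGLAP (0.223), SP7 (0.0133), DMP1 (0.0135) and COL1A2 (0.0113), was near 0.

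The RNA of all 9 genes was low in blank cells. The mean FPKM in blank cells was under 0.5 for 5 of them, and TNFRSF14 and GOLT1A were the only members with a mean above 1. Single libraries held 12 to 1377 reads of a member in blank cells, 41 to 3876 with siSRSF1-2 and 67 to 3974 with siSRSF1-3. With each siRNA, every library lay above every blank library for 9 of 9 members, where 25.3% of the 17538 genes tested did so with siSRSF1-2 and 19.2% with siSRSF1-3. This count was fixed by the choice and nothing is read from it. All 9 passed the filter of a mean FPKM of at least 0.5 over the 12 libraries, 5 of them only through the groups in which they were high. In bulk RNA, more cells with a transcript and more transcripts per cell cannot be told apart.

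**Figure D1:**
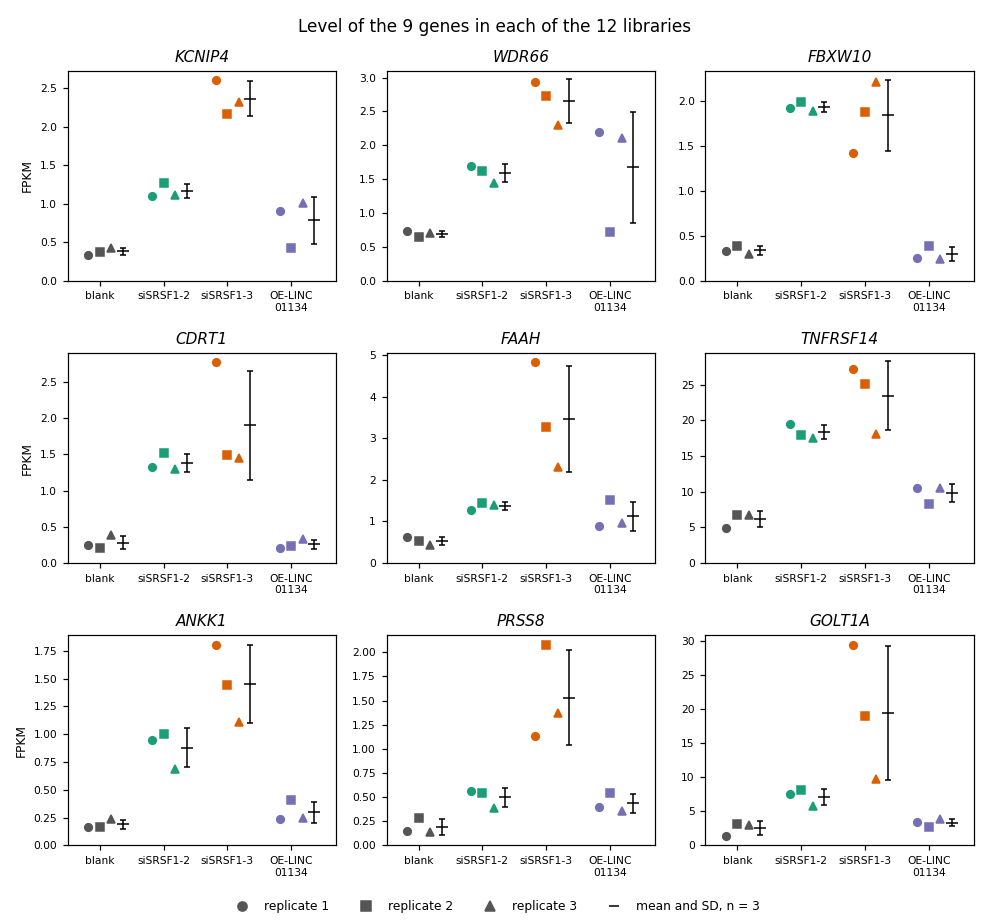
FPKM (linear axis from 0) of each of the 9 genes in the blank, siSRSF1-2, siSRSF1-3 and OE-LINC01134 libraries, with a point for each library, its shape giving the replicate, and a bar for the mean and SD (n = 3). The siRNA points lie above all blank points in every panel, while the OE-LINC01134 points reach the siSRSF1-2 points in the panels of WDR66, FAAH and PRSS8.

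TNFRSF14 (ENSG00000157873) encodes a receptor of the tumour necrosis factor family that binds the ligands LIGHT and lymphotoxin alpha and the immune receptors BTLA and CD160. It lies on chromosome 1 from 2555639 to 2565382, plus strand, in coordinates as deposited, whose human build is not given in the sources used here. Its FPKM was 4.91, 6.78 and 6.77 in blank cells, 19.4, 17.9 and 17.6 with siSRSF1-2, and 27.2, 25.1 and 18 with siSRSF1-3. This was the best measured member, with 846 reads or more in each library. The means were 6.15 ± 1.07, 18.3 ± 0.975 and 23.4 ± 4.80 (SD, n = 3), and the log2 fold changes against blank cells were 1.57 (standard error 0.14) and 1.91 (standard error 0.23). The libraries of the siRNAs overlapped each other. With each library on its own read total, the means of the 2 siRNA groups were 19.8 and 20.3.

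TNFSF14 and BTLA, a ligand and a binding partner of TNFRSF14, were near 0, and none of its signalling genes passed both thresholds. TNFSF14, which encodes LIGHT, had a mean FPKM of 0.0302 in blank cells, 0.0962 with siSRSF1-2 and 0.0401 with siSRSF1-3. BTLA was at 0.0356, 0.0333 and 0.0238 in the same groups. LTBR, the lymphotoxin beta receptor that shares LIGHT with TNFRSF14, was at 17.2, 20.1 and 24.2. Its log2 fold changes of 0.26 and 0.51 did not pass the test (adjusted p = 0.322 and 0.191, limma). Of 15 genes listed as ligands, co-receptors and signalling proteins of this receptor, 10 were tested, and 0 passed in either direction with either siRNA. With siSRSF1-2, TRAF5 (log2 fold change 0.50, adjusted p = 0.00868, limma), TRAF3 (0.38, adjusted p = 0.0367) and TRAF2 (-0.31, adjusted p = 0.0375) missed the fold threshold only. Of all genes tested, 2.22% passed as higher and 2.73% as lower with siSRSF1-2, and 0.331% and 0.929% with siSRSF1-3. RELB, a subunit of NF-kappaB, had a mean of 23.6 in blank cells, 38.7 with siSRSF1-2 and 66 with siSRSF1-3, and was named after its values were seen. It did not pass with siSRSF1-3 (log2 fold change 1.57, adjusted p = 0.0951, limma).

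KCNIP4 (ENSG00000185774) encodes a calcium-binding subunit of the Kv4 voltage-gated potassium channels. It lies on chromosome 4 from 20728616 to 21948799, minus strand, the longest locus of the 9. In blank cells its FPKM was 0.339, 0.380 and 0.424. With siSRSF1-2 it was 1.10, 1.27 and 1.12, and with siSRSF1-3 it was 2.61, 2.16 and 2.32. The 3 groups stood in steps without overlap, at means of 0.381 ± 0.0422, 1.17 ± 0.0932 and 2.37 ± 0.228 (SD, n = 3). The log2 fold changes were 1.40 (standard error 0.18) and 2.36 (standard error 0.25). These rested on 40 to 59 reads per blank library and 218 to 308 with siSRSF1-3.

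The genes of the Kv4 channels that KCNIP4 serves were low. KCND1 had mean FPKM of 0.675 in blank cells, 0.524 with siSRSF1-2 and 0.494 with siSRSF1-3 and did not pass (adjusted p = 0.413 and 0.506, limma). KCND2 had a mean FPKM of 0.00217 in blank cells and 0 reads with either siRNA, and KCND3 stayed between 0.148 and 0.181 in these groups. The related subunits KCNIP2 and KCNIP3 had blank means of 1.14 and 1.56. Of 10 genes of the Kv4 and KCNIP group, 5 were tested and 0 passed with either siRNA. PSEN2, a presenilin that binds calcium-sensing proteins of this family, was at 7.59 in blank cells, 12.1 with siSRSF1-2 and 12.4 with siSRSF1-3. Its log2 fold changes were 0.66 (adjusted p = 0.00177, limma) and 0.69 (adjusted p = 0.0802, limma), both under the fold threshold of 1.

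FAAH (ENSG00000117480) encodes the membrane hydrolase that degrades anandamide and other fatty acid amides, on chromosome 1 from 46394265 to 46413848, plus strand. Its FPKM was 0.624, 0.532 and 0.430 in blank cells and 1.27, 1.45 and 1.39 with siSRSF1-2. With siSRSF1-3 it was 4.83, 3.27 and 2.3. The siSRSF1-3 libraries all lay above the siSRSF1-2 libraries but differed by over a factor of 2 among themselves, with replicate 1 the highest. The log2 fold changes were 1.23 (standard error 0.18) and 2.45 (standard error 0.32). On each library's own read total the siSRSF1-3 values were 3.44, 2.91 and 2.44, and still above the 1.37 to 1.57 of siSRSF1-2.

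Of the endocannabinoid genes listed with FAAH, 1 passed the test with each siRNA, too small a count to compare with the shares of all genes. Of 15 listed enzymes and receptors, 13 were tested. With siSRSF1-2, 0 passed as higher and 1 as lower, against 2.22% and 2.73% of all genes tested. The gene that fell was FABP5, a fatty acid binding protein that carries anandamide in the cell, from a mean of 49.0 to 18.3 (log2 fold change -1.36, adjusted p = 0.00968, limma). With siSRSF1-3, 1 passed as higher and 0 as lower, against 0.331% and 0.929%. This was DAGLB, an enzyme that makes the endocannabinoid 2-arachidonoylglycerol, which rose from 9.40 to 24.3 (log2 fold change 1.35, adjusted p = 0.0453, limma). On own read totals this call was lost. It was also lost without any one of the blank libraries, siSRSF1-3 replicate 1 or siSRSF1-3 replicate 2, with adjusted p up to 0.219. The paralog FAAH2 had means of 0.431, 0.578 and 0.911 in the blank, siSRSF1-2 and siSRSF1-3 groups and did not pass (adjusted p = 0.425 and 0.174, limma). The cannabinoid receptor CNR1 was at 0.0428, 0.113 and 0.0697.

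PRSS8 (ENSG00000052344) encodes prostasin, a membrane-anchored serine protease of epithelia that activates the epithelial sodium channel. It lies on chromosome 16 from 31131433 to 31135762, minus strand. The blank libraries gave an FPKM of 0.144, 0.281 and 0.142, on 12 to 24 reads each. With siSRSF1-2 it was 0.567, 0.540 and 0.384, and with siSRSF1-3 it was 1.14, 2.08 and 1.37. It was the member with the widest gap between the siRNAs, at a ratio of means of 3.08. The log2 fold changes were 1.07 (standard error 0.36) and 2.49 (standard error 0.41). Replicate 2 was its highest siSRSF1-3 library.

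Most genes listed as acting with prostasin were low, and the receptor F2RL1 was not. The mean FPKM of ST14, the protease matriptase, was 0.265 in blank cells, 0.102 with siSRSF1-2 and 0.400 with siSRSF1-3. The inhibitor SPINT2 was at 0.180, 0.147 and 0.251. The sodium channel subunit SCNN1A was at 0.777, 0.324 and 0.315 in these groups, with log2 fold changes of -0.78 and -0.81 that did not pass (adjusted p = 0.327 and 0.375, limma). F2RL1, a receptor that proteases activate by cleavage, was at 22.8, 21.7 and 21.1. Of 13 genes in this list, 3 were tested and 0 passed with either siRNA. Among 12 epithelial markers, 6 were tested, and KRT8 alone passed with siSRSF1-2, falling from 42.7 to 18.2 (log2 fold change -1.18, adjusted p = 0.0109, limma). Of all genes tested, 2.73% passed as lower with siSRSF1-2. Its call was lost without blank replicate 1 (-0.93) or siSRSF1-2 replicate 2 (adjusted p = 0.0511). With siSRSF1-3, 0 of the 6 passed, with log2 fold changes above 0 for 4 and below 0 for 2. Among the 4, ESRP1 was at 1.58 (adjusted p = 0.152, limma) and EPCAM at 0.78 (adjusted p = 0.123, limma). The summed FPKM of these markers was 109 to 189 in blank cells, 66.4 to 69.7 with siSRSF1-2 and 77.0 to 229 with siSRSF1-3. GRHL2 had 0 reads with either siRNA and at most 2 in a blank library.

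ANKK1 (ENSG00000170209) encodes an ankyrin repeat protein with a kinase domain of the receptor-interacting protein family, and its gene borders that of the dopamine receptor D2. It lies on chromosome 11 from 113387791 to 113400418, plus strand. In blank cells its FPKM was 0.167, 0.163 and 0.235, on 12 to 20 reads. It reached 0.952, 1 and 0.684 with siSRSF1-2 and 1.81, 1.44 and 1.11 with siSRSF1-3. The groups did not overlap. Its log2 fold changes were 1.76 (standard error 0.28) and 2.41 (standard error 0.37). On own read totals its siSRSF1-3 mean was 1.25 ± 0.0594 (SD, n = 3), a narrower spread than the 1.45 ± 0.348 of the deposited values.

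DRD2, the dopamine receptor gene next to ANKK1, was under the filter, with mean FPKM of 0.420 in blank cells, 0.301 with siSRSF1-2 and 1.07 with siSRSF1-3. The related kinases RIPK1 and RIPK2 were at 5.49 and 16.2 in blank cells, and RIPK3 was at 0.0036. Of the 7 genes listed for ANKK1, 4 were tested and 0 passed with either siRNA.

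FBXW10 (ENSG00000171931) and CDRT1 (ENSG00000241322) are paralogs with an F-box and WD40 repeats, the build of proteins that bring substrates to SCF ubiquitin ligases. They sit in duplicated stretches of chromosome 17, FBXW10 from 18744024 to 18779349 on the plus strand and CDRT1 from 15565483 to 15619512 on the minus strand. Reads that fit both copies may have been given to either, and the counting rule is not given in the sources used here, so the split between them is uncertain. Their deposited gene lengths were 4390 and 4286 bases. FBXW10 was at an FPKM of 0.329, 0.393 and 0.299 in blank cells, 1.93, 2.00 and 1.89 with siSRSF1-2, and 1.43, 1.88 and 2.22 with siSRSF1-3. CDRT1 was at 0.253, 0.213 and 0.385 in blank cells, 1.32, 1.52 and 1.30 with siSRSF1-2, and 2.77, 1.49 and 1.45 with siSRSF1-3. Both were thus about as high with one siRNA as with the other, and their siRNA libraries overlapped. In siSRSF1-3 replicate 1 the paralogs parted, with FBXW10 at its lowest and CDRT1 at its highest siRNA level, a ratio of 0.515 where the siSRSF1-2 libraries gave 1.31 to 1.46.

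With siSRSF1-2 the log2 fold change was 2.22 (standard error 0.16) for FBXW10 and 1.97 (standard error 0.23) for CDRT1, ranks 76 and 112 from the highest of all genes tested. With siSRSF1-3 these were 2.13 (standard error 0.30) and 2.35 (standard error 0.38), at ranks 127 and 69. FBXW10 was the only member whose mean was lower with siSRSF1-3 than with siSRSF1-2, 1.84 ± 0.397 against 1.94 ± 0.0525 (SD, n = 3), a gap smaller than the spread. Of 15 listed F-box WD40 proteins, SCF core subunits and chromobox proteins, 14 were tested and 0 passed with either siRNA. Among them FBXW4 had means of 1.95, 2.48 and 5.03, and SKP1, the adaptor that binds F-boxes, had 8.32, 6.66 and 11.9 in the blank, siSRSF1-2 and siSRSF1-3 groups.

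The genes beside the paralogs are duplicated with them. TRIM16L lies 7905 bases upstream of FBXW10 and TRIM16 lies 8447 bases upstream of CDRT1, each on the strand of its neighbour. TRIM16L was at an FPKM of 16.6, 14.4 and 14.7 in blank cells, 30.6, 30.7 and 31.1 with siSRSF1-2, and 28.2, 28.2 and 24.8 with siSRSF1-3. It rose with siSRSF1-2 (log2 fold change 1.01, adjusted p = 0.00115, limma) and did not pass with siSRSF1-3 (0.83, adjusted p = 0.0569). TRIM16 was at 5.58, 5.51 and 5.19 in blank cells, 7.89, 7.88 and 7.70 with siSRSF1-2, and 12.9, 11.4 and 6.65 with siSRSF1-3. Its log2 fold change was 0.52 with siSRSF1-2 (adjusted p = 0.00414, limma), under the fold threshold, and 0.86 with siSRSF1-3 (adjusted p = 0.109). The call of TRIM16L, close to the fold threshold, was lost with a pseudocount of 1, and without blank replicate 2 or 3, where the log2 fold change was at its lowest 0.97. Downstream, TVP23B began 1645 bases beyond FBXW10 and TVP23C 1887 bases beyond CDRT1. Their log2 fold changes were 0.47 and 0.12 with siSRSF1-2 and 0.11 and 0.31 with siSRSF1-3, and neither passed.

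**Figure D2:**
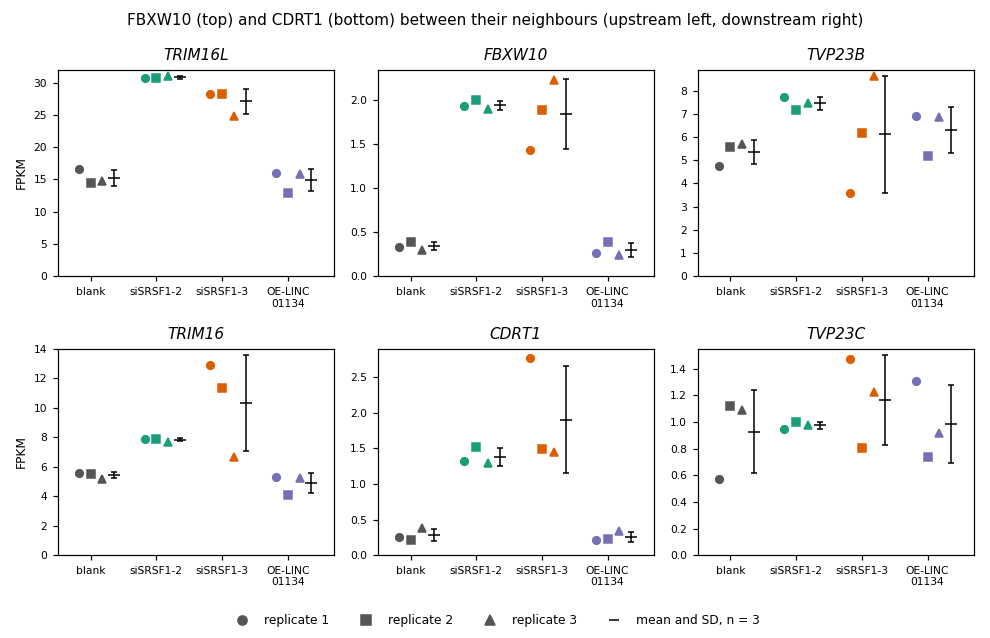
FPKM (linear axes from 0) of FBXW10 and CDRT1 in the middle column, with the upstream neighbours TRIM16L and TRIM16 on the left and the downstream neighbours TVP23B and TVP23C on the right, by group, with points for single libraries and a bar for mean and SD (n = 3). TRIM16L and TRIM16 stand above all blank libraries in the siRNA groups, at a smaller multiple of their blank mean than their neighbours FBXW10 and CDRT1. TVP23C overlaps between the groups.

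The share of FBXW10 relative to TRIM16L was 0.0198 to 0.0273 in blank cells, 0.0609 to 0.0650 with siSRSF1-2 and 0.0507 to 0.0894 with siSRSF1-3. For CDRT1 relative to TRIM16 it was 0.0387 to 0.0743, 0.168 to 0.193 and 0.131 to 0.218. In both places the F-box gene stood higher relative to its upstream neighbour in every siRNA library. The F-box genes were chosen for their rise in these libraries and the neighbours by position. The higher ratios thus follow in part from the choice.

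GOLT1A (ENSG00000174567) encodes a small membrane protein of vesicle transport at the Golgi, on chromosome 1 from 204198160 to 204214092, minus strand. Its FPKM was 1.34, 3.19 and 2.93 in blank cells, 7.45, 8.08 and 5.78 with siSRSF1-2, and 29.4, 19 and 9.71 with siSRSF1-3. It had the highest rank of the members with siSRSF1-3, 19 from the top of the genes tested, and the widest spread, with an SD of 9.83 around a mean of 19.4. The log2 fold changes were 1.55 (standard error 0.34) and 2.86 (standard error 0.48). Without blank replicate 1, the lowest library, they were 1.18 and 2.48. On own read totals the siSRSF1-3 libraries were at 20.9, 16.9 and 10.3.

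Other genes of Golgi transport were tested beside GOLT1A. Its paralog GOLT1B was at a mean FPKM of 19.3 in blank cells, 23.1 with siSRSF1-2 and 25.2 with siSRSF1-3, with log2 fold changes of 0.26 and 0.37. All 10 SNAREs, tethers and related proteins listed for Golgi transport were tested, and 0 passed with either siRNA. Some missed the fold threshold only, among them GOSR1 (log2 fold change 0.50, adjusted p = 0.00435, limma) and YKT6 (-0.41, adjusted p = 0.00510) with siSRSF1-2.

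WDR66 (ENSG00000158023), also known as CFAP251, encodes a protein of the calmodulin- and spoke-associated complex of motile cilia and sperm flagella. It lies on chromosome 12 from 121917862 to 122003927, plus strand. The FPKM in blank cells was 0.728, 0.648 and 0.710. It was 1.70, 1.62 and 1.45 with siSRSF1-2 and 2.94, 2.73 and 2.29 with siSRSF1-3. These groups did not overlap, and the gene length of 16115 bases gave it 297 reads or more in each blank library. Its log2 fold changes were 1.08 (standard error 0.14) and 1.79 (standard error 0.22), the lowest of the members with siSRSF1-3.

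Other genes of motile cilia were low or near 0. Of 13 radial spoke and cilia genes, RSPH3 alone was expressed enough to be tested, at a mean FPKM of 4.81 in blank cells, 4.59 with siSRSF1-2 and 4.44 with siSRSF1-3. FOXJ1, the master factor of motile cilia, was at 0.0161, 0.0350 and 0.0267.

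Set side by side, siSRSF1-3 gave the higher mean for 8 of the 9 genes, and for 6 (KCNIP4, WDR66, FAAH, ANKK1, PRSS8 and GOLT1A) every siSRSF1-3 library lay above every siSRSF1-2 library. FBXW10, CDRT1 and TNFRSF14 overlapped. The same 6 and 3 genes came out on each library's own read total. The siRNAs share the blank libraries and the members were picked on both, so no test was made of this difference. The choice also took genes among the largest rises with siSRSF1-3, which favours siSRSF1-3 here. The share of all genes in the same order was not computed, so these counts do not rank the siRNAs. Within siSRSF1-3, replicate 1 was the highest library for 7 members and replicate 3 the lowest for 6, as the FPKM were deposited. On own read totals this order was not kept. Replicate 1 was then the highest for 4 (CDRT1, FAAH, ANKK1 and GOLT1A) and the lowest for 4 (KCNIP4, WDR66, FBXW10 and PRSS8).

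**Figure D3:**
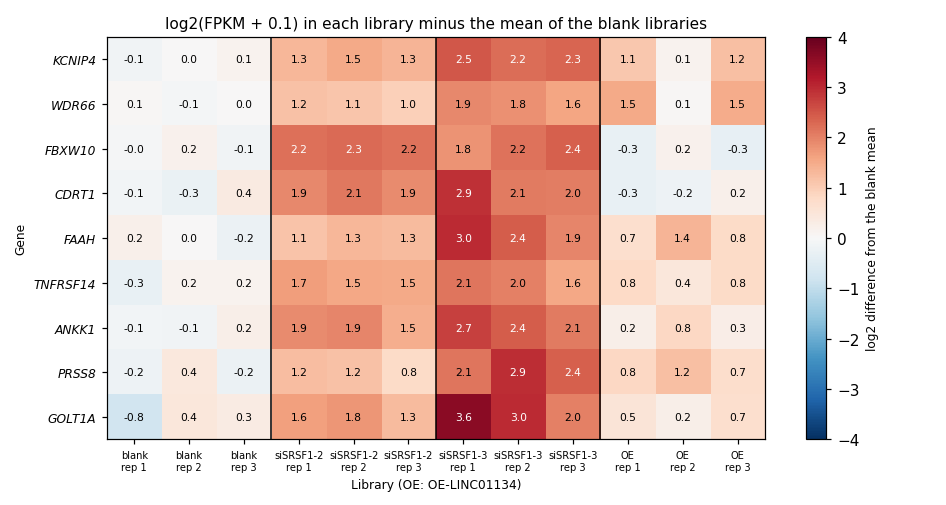
Difference of log2(FPKM + 0.1) of each gene (rows) in each library (columns) from the mean of the 3 blank libraries, in colour (red above, blue below) and as a number, with OE standing for OE-LINC01134. All siRNA columns are red, GOLT1A in siSRSF1-3 replicate 1 is highest at 3.6, and within OE-LINC01134 the columns of replicates 1 and 3 resemble each other more than replicate 2 for KCNIP4 and WDR66.

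Overexpression of LINC01134 was a condition in which SRSF1 did not pass (log2 fold change 0.32, adjusted p = 0.405, limma). The 9 genes were compared there to see whether they were high in another treated group. By limma with adjustment over all genes tested, 0 of 9 members passed as higher and 0 as lower, against 0.257% and 0.593% of all genes. With unadjusted p below 0.05 in place of the adjusted one, 1 passed as higher (WDR66), and with voom on recovered reads 0 passed. The blank libraries in this comparison are those that took part in the choice of members, so low blank levels are shared by all 3 comparisons. The median log2 fold change of the members was 0.67, beside 0.05 for all genes tested. As the FPKM were deposited, every OE-LINC01134 library lay above every blank library for 5 members, beside 16.8% of all genes tested. On own read totals KCNIP4 and ANKK1, counted among the 5, overlapped the blank libraries. The members' siSRSF1-3 libraries lay above all OE-LINC01134 libraries for 9 of 9. That second count largely follows from choosing members for high levels with siSRSF1-3, and nothing is read from it.

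WDR66 and KCNIP4 had the same pattern over the OE-LINC01134 libraries. WDR66 was at an FPKM of 2.19, 0.727 and 2.11, and KCNIP4 at 0.908, 0.430 and 1.01. In both, replicates 1 and 3 stood well above the blank libraries while replicate 2 lay at or next to them. The log2 fold changes were 1.02 (adjusted p = 0.180, limma) and 0.81 (adjusted p = 0.218). Without replicate 2, the library that stood apart in this group, they were 1.5 (adjusted p = 0.00736, limma) and 1.14 (adjusted p = 0.0299), and both genes passed, when 2.91% of all genes did as higher. Replicates 1 and 3 were close to each other, with a mean chi-square per gene of 2.14, above counting error alone. With them and blank replicates 2 and 3 each averaged into 1 sample, a setting added after seeing the data, the adjusted p was 0.801 and 0.831 (limma). That setting leaves 2 samples in each group and includes OE-LINC01134 replicate 2. Almost no gene of all those tested passed in it, so it cannot judge these calls.

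FAAH, TNFRSF14, PRSS8 and ANKK1 lay above every blank library in all OE-LINC01134 libraries as deposited, and none of them passed. For ANKK1 the gap was narrow. On own read totals its OE-LINC01134 replicate 1 (0.252) lay under blank replicate 3 (0.253). FAAH was at an FPKM of 0.895, 1.52 and 0.958 (log2 fold change 0.94, adjusted p = 0.112, limma). TNFRSF14 was at 10.5, 8.31 and 10.5, or 0.67 on the log2 scale with an adjusted p of 0.0890 from limma. PRSS8 was at 0.401, 0.547 and 0.360, and ANKK1 at 0.239, 0.409 and 0.242, with adjusted p of 0.218 and 0.543 (limma). Here replicate 2 was the highest library for FAAH, PRSS8 and ANKK1 and the lowest for TNFRSF14. GOLT1A overlapped the blank libraries at 3.40, 2.74 and 3.79 (log2 fold change 0.48, adjusted p = 0.392, limma).

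The paralogs FBXW10 and CDRT1 were at blank level in the OE-LINC01134 libraries. FBXW10 was at an FPKM of 0.259, 0.392 and 0.247, and CDRT1 at 0.209, 0.231 and 0.335. Their log2 fold changes were -0.15 (standard error 0.37) and -0.09 (standard error 0.42), with adjusted p of 0.815 and 0.910 (limma), and the sign for CDRT1 turned when 1 library was left out. Of the genes in the lists tied to the 9 members, 0 passed in this comparison. TRIM16L and TRIM16 also gave values near blank, -0.03 and -0.16.

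The genes next to the 9 members were tested as well. The nearest tested gene on each side and the tested genes that overlap a member made 20 neighbours, found from position, which the choice of members had not used. With siSRSF1-2, 2 of 20 passed as higher and 0 as lower, against 2.22% and 2.73% of all genes tested. With siSRSF1-3 and with OE-LINC01134, 0 passed in either direction. With unadjusted p below 0.05, and with voom, the siSRSF1-3 and OE-LINC01134 counts were also 0. The neighbours that passed with siSRSF1-2 were TRIM16L and ENSG00000225931, an unnamed transcript that starts 1027 bases downstream of TNFRSF14 on its strand. ENSG00000225931 was at an FPKM of 0.362, 0.624 and 0.613 in blank cells and 1.32, 2.06 and 2.41 with siSRSF1-2 (log2 fold change 1.67, adjusted p = 0.0108, limma), and lost its call without siSRSF1-2 replicate 2 or 3 (adjusted p up to 0.0549). The 3 siSRSF1-2 libraries were close to each other, with a mean chi-square per gene of 2.63 to 3.24 between pairs, above counting error alone. Averaging them leaves 1 sample in that group, so that setting cannot judge this call. With siSRSF1-3, where TNFRSF14 was as high or higher, ENSG00000225931 was at 0.354, 0.455 and 1.24 (log2 fold change 0.17, adjusted p = 0.840).

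**Figure D4:**
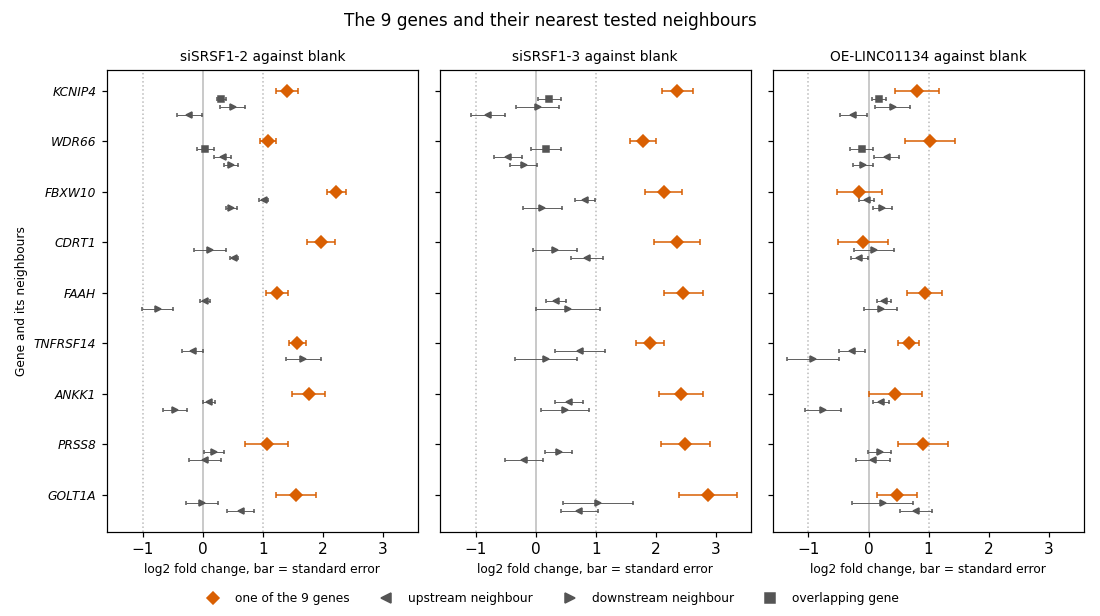
log2 fold change against blank cells (horizontal axis, bars for the standard error) of each of the 9 genes (orange diamonds) and of its 20 tested neighbours (grey, with triangles for upstream and downstream and squares for overlapping genes) in the 3 comparisons, with dotted lines at -1 and 1. In both siRNA panels all 9 diamonds lie beyond 1, while ENSG00000225931 and TRIM16L with siSRSF1-2 and KISS1 with siSRSF1-3 are the only neighbours beyond that line.

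KISS1, a metastasis suppressor gene, begins 1673 bases downstream of GOLT1A on the same strand and was expressed far more strongly. It was at an FPKM of 301, 152 and 154 in blank cells, 194, 188 and 187 with siSRSF1-2, and 796, 433 and 178 with siSRSF1-3. Its siSRSF1-3 libraries fell in the same order as those of GOLT1A, and its log2 fold change of 1.04 did not pass (adjusted p = 0.261, limma). GOLT1A was at 0.0383, 0.0430 and 0.0310 of the KISS1 level with siSRSF1-2 and 0.0369, 0.0439 and 0.0547 with siSRSF1-3. In blank cells this ratio was 0.00443, 0.0210 and 0.0190. TTC12, 4246 bases upstream of ANKK1, was at a mean of 2.69 in blank cells, 2.90 with siSRSF1-2 and 4.07 with siSRSF1-3. ANKK1 stood at 0.0638 to 0.0803 of it in blank cells and at 0.224 to 0.374 over the siRNA libraries. GOLT1A and ANKK1 were chosen for their rise with the siRNAs, so the higher ratios follow in part from the choice.

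FAAH has a pseudogene, FAAHP1, 18280 bases downstream on the same strand, with which it may share reads. FAAHP1 was at an FPKM of 1.24, 2.16 and 2.3 in blank cells, 1.21, 0.861 and 1.10 with siSRSF1-2, and 5.21, 3.24 and 1.17 with siSRSF1-3. With siSRSF1-2, where FAAH was high, all FAAHP1 values lay below those of the blank libraries as deposited, by a narrow gap. On own read totals they overlapped, with siSRSF1-2 replicate 1 at 1.31 and blank replicate 1 at 1.23. The log2 fold changes of FAAHP1 of -0.75 with siSRSF1-2 and 0.54 with siSRSF1-3 did not pass (adjusted p = 0.0821 and 0.505, limma). With siSRSF1-3 its replicates 1 and 2 were the high ones, as for FAAH.

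Genes that overlap a member could share its reads if the counting did not use strand, which is not given in the sources used here. PACRGL overlaps KCNIP4 on the other strand and was at a mean FPKM of 3.71 in blank cells, 4.61 with siSRSF1-2 and 4.41 with siSRSF1-3. PSMD9 overlaps the start of WDR66 on the same strand and was at 1.18, 1.21 and 1.35. Both had log2 fold changes of 0.30 or less. KAT8 ends 39 bases from PRSS8 on the other strand, at means of 5.42, 6.04 and 7 in the same groups, and did not pass (adjusted p = 0.454 and 0.282, limma). Counting genes under the filter too, 8 listed genes overlap KCNIP4, 3 overlap CDRT1 and 2 overlap WDR66. NSUN4 beside FAAH and BCL7A beside WDR66 gave log2 fold changes of 0.03 and 0.47 with siSRSF1-2.

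The genes whose pattern over the 12 libraries was most like that of a member were spread over the genome, by Pearson's r of log2(FPKM + 0.1). The 12 points fall in groups and share the libraries that stand apart, so these values describe likeness only. For FBXW10 the closest was FAM19A5, a secreted chemokine-like protein gene (r = 0.972), at a mean FPKM of 8.68 in blank cells, 27.1 with siSRSF1-2, 25.8 with siSRSF1-3 and 7.99 with OE-LINC01134. For CDRT1 it was PAX8, a paired box transcription factor gene (r = 0.978), at 0.434, 1.55, 2.02 and 0.459. These showed the same order of groups as the paralogs, with both siRNAs high and OE-LINC01134 at blank level.

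KCNIP4, WDR66 and TNFRSF14 were matched by genes that also stood above blank cells with OE-LINC01134. FLCN, the folliculin tumour suppressor gene, followed WDR66 (r = 0.987) at means of 6.70 in blank cells, 11.5 with siSRSF1-2, 14.6 with siSRSF1-3 and 10.7 with OE-LINC01134. HSPBAP1 followed KCNIP4 (r = 0.971) at 5.22, 10.2, 14.5 and 7.90. TNFRSF14 was followed by the unnamed transcripts ENSG00000240219 (r = 0.975) and ENSG00000285722 (r = 0.972), the second at 15.3, 126, 135 and 29.2. RENBP, which encodes a renin binding protein, followed GOLT1A (r = 0.978) at 20.4, 34.0, 73.6 and 21.7. PRSS8 had the weakest best match, the ferritin pseudogene FTLP3 (r = 0.949). Among the members themselves KCNIP4 was the closest to every other member, with r from 0.753 for FBXW10 to 0.938 for TNFRSF14.

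Of the interferon-stimulated genes, which transfected RNA can raise, 0 passed as higher with either siRNA. With siSRSF1-2, 0 of 5 tested passed as higher and 2 as lower, against 2.22% and 2.73% of all genes tested, namely ISG15 (log2 fold change -1.02, adjusted p = 0.00133, limma) and OAS1 (-1.17, adjusted p = 0.0159). With siSRSF1-3, IFIT3 fell (-1.65, adjusted p = 0.0430, limma) and 0 passed as higher, against 0.929% and 0.331%. The calls of ISG15 and OAS1 were lost without siSRSF1-2 replicate 1, and that of ISG15 also without blank replicate 2 (-0.97 at the lowest fold), that of OAS1 without blank replicate 1, siSRSF1-2 replicate 2 or replicate 3 (adjusted p up to 0.0664). IFIT3 lost its call without any one of the blank libraries, siSRSF1-3 replicate 1 or siSRSF1-3 replicate 2 (adjusted p up to 0.219). The summed FPKM of the 8 listed genes was 33.6 to 35.5 in blank cells, 19.7 to 22.1 with siSRSF1-2 and 17.5 to 63.1 with siSRSF1-3. With OE-LINC01134 it was 11.6 to 21.3. There all 5 tested genes had log2 fold changes below 0, with a median of -1.39, and 0 passed. Of 6 osteoblast and mesenchymal markers tested, VIM fell with siSRSF1-2 (log2 fold change -1.39, adjusted p = 0.00148, limma) and ALPL with OE-LINC01134 (-1.91, adjusted p = 0.0402). Of all genes tested, 2.73% and 0.593% passed as lower there. The ALPL call was lost without blank replicate 2 or 3 or OE-LINC01134 replicate 1 or 3 (adjusted p up to 0.206). With the siRNAs ALPL lay above all blank libraries, at log2 fold changes of 0.43 (adjusted p = 0.00984, limma) with siSRSF1-2 and 0.85 (adjusted p = 0.0995) with siSRSF1-3. The other 5 were below 0 with each siRNA, and all 6 were below 0 with OE-LINC01134. Over all 78 list genes tested, with unadjusted p below 0.05, 0 were higher and 5 lower with siSRSF1-2, 5 and 4 with siSRSF1-3, and 1 and 7 with OE-LINC01134. With voom the counts were 0 and 5, 1 and 3, and 0 and 5. The summed FPKM of 5 blood cell markers was 6.03 to 7.77 in blank cells, 12.4 to 15.8 with siSRSF1-2, 10.1 to 51.0 with siSRSF1-3 and 6.72 to 7.40 with OE-LINC01134, almost all of it HBB, while CD3E had 0 reads in all 4 groups. The part of these markers in the levels of the 9 genes was not tested.

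The size of the members' differences depended on the pseudocount and the scaling. With a pseudocount of 1 in place of 0.1, the log2 fold change with siSRSF1-3 went from 2.36 to 1.28 for KCNIP4, from 2.49 to 1.07 for PRSS8 and from 2.41 to 1.04 for ANKK1. A pseudocount of 1 gave the lowest value of any setting for 7 of the 9 genes with either siRNA, all but TNFRSF14 and GOLT1A. On own read totals the median over all 17538 genes went from -0.01 to -0.26 with siSRSF1-3 on the log2 scale, and rescaling to one sum in every library moved it to -0.43. On the own total the members' log2 fold changes with siSRSF1-3 lay between 1.54 (WDR66) and 2.61 (GOLT1A), and on the same sum between 1.37 and 2.42 for these genes. With siSRSF1-2 the median of all genes was 0.02 as deposited, 0.06 on own totals and 0.15 on the same sum.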

How the data were processed

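RNA of 12 U2OS libraries was measured by RNA-Seq. FPKM per gene and library were deposited by the authors with gene lengths, coordinates and full names, and the table held no comparison of groups. Per the study's methods, mRNA was selected with poly-T beads and read as 150 bp pairs, while the labels name another library kit. The aligner, the counting program and the human build are not given in the sources used here, and the labels list the mouse builds GRCm38 and mm10. FPKM times length came to whole reads, with a largest deviation of 0.000153. Each library held 26237763 to 32954539 reads on genes, and floors or intervals would cover counting error only.

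Symbols were matched through full names. Pairs of groups (3 + 3 libraries) were compared on log2(FPKM + 0.1) with limma 3.58.1 in R 4.3.3 (lmFit, eBayes with trend) over the 17538 genes whose mean FPKM reached 0.5. A gene passed with an adjusted p (Benjamini-Hochberg) below 0.05 and a log2 fold change above 1 or below -1. Genes with an adjusted p below 0.05 and a smaller fold change count as not passing. Fold changes on this scale understate those of low genes. The fit was tested on simulated data.

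The 9 genes and all gene lists were chosen with earlier results of these data known. Genes named were SRSF1, LINC01134, the 9 members, their neighbours, list genes that passed (at most 4 per list), direct partners, and the genes closest in pattern (up to 3 per member). Others named for comparison within a list were chosen after their values were seen. Alternatives were other pseudocounts, filters and scalings, no trend, a fit over all groups, voom on recovered reads, a replicate block, unadjusted p and leaving out each library, and, after the data were seen, close libraries averaged. No sequences are shown, since no human reference was used here.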

Additional observations from a re-analysis of the deposited data

Results flagged for a closer look

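Among genes of the lists, 12 pairs of comparisons had every library of one treated group above all blank libraries and every library of the other below them. These differences were picked by the absence of overlap and were not tested. Each is the first group minus the second, on the log2(FPKM + 0.1) scale. The share of all genes tested that had such pairs was not computed, so nothing is read from the count of 12.

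Most set siSRSF1-2 or siSRSF1-3 apart from OE-LINC01134. For ALPL, the alkaline phosphatase of bone, the difference was 2.34 between siSRSF1-2 and OE-LINC01134 and 2.75 between siSRSF1-3 and OE-LINC01134, with mean FPKM of 5.66 in blank cells, 7.65, 10.5 and 1.5. PSEN2, which binds proteins of the KCNIP4 family, gave 1.41 and 1.43 for the same pairs. SCNN1A, the sodium channel subunit linked to PRSS8, gave -2.44 between siSRSF1-3 and OE-LINC01134, at 0.315 against 2.2 and a blank mean of 0.777. MGLL, which degrades 2-arachidonoylglycerol, gave 1.20 between siSRSF1-2 and OE-LINC01134. TRAF5, an adaptor of TNFRSF14, gave 0.78, FBXW2 gave -0.58 and ABHD12 gave -0.34 for that pair.

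The siRNAs lay on opposite sides of the blank libraries for 2 endocannabinoid genes. ABHD12, a lipase, gave -0.98 between siSRSF1-2 and siSRSF1-3, with means of 17.5 and 36.2 around a blank mean of 20.3. PPARA, a nuclear receptor for fatty acid amides, gave 1.20 for this pair, with means of 4.79 and 2.04 around 2.72, and -0.92 between siSRSF1-3 and OE-LINC01134.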

How the results depend on the processing

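The 9 genes kept the direction of their siRNA differences in all 150 alternative values for each siRNA, of which 129 with siSRSF1-2 and 127 with siSRSF1-3 moved by less than 1 SD. With OE-LINC01134, 154 of 159 alternative values kept sign and side of the threshold. WDR66 and KCNIP4 passed without OE-LINC01134 replicate 2, and the value of CDRT1 ranged from -0.24 to 0.0912 with a library left out, turning sign without blank replicate 3 (0.0912) and OE-LINC01134 replicate 1 (0.007272). Members called higher there numbered 1 by unadjusted p and 0 to 2 with a library left out. LINC01134 ranged from 10.3 to 10.7 with a library left out.

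SRSF1 was at -1.86 with siSRSF1-2 when close libraries were averaged, which leaves 1 sample in that group and so cannot judge calls. It was at -1.88 to -1.45 with a library left out. With siSRSF1-3 it passed with a pseudocount of 1 (-1.92), one fit over all 4 groups (-2.09), voom (-2.08) and unadjusted p (-2.09), and ranged from -2.33 to -1.72 with a library left out.

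Counts of list genes moved in most settings. With siSRSF1-2 the same sum gave 1 higher. The 5 lower became 3 with a pseudocount of 1, 0 in one fit over all 4 groups, and 3 to 7 with a library left out. With siSRSF1-3 the 1 higher became 0 with a pseudocount of 0.01, no filter, own read totals, the same sum, no trend, the replicate block or averaging, and 5 in one fit over all 4 groups and by unadjusted p (0 to 7 with a library left out). The 1 lower became 0 with a pseudocount of 1, own totals, the same sum, the block or averaging, 4 in one fit over all 4 groups, 3 with voom and 4 by unadjusted p (0 to 5 with a library left out). With OE-LINC01134, 1 was higher by unadjusted p (0 to 2 with a library left out). The 1 lower became 0 without a filter, without a trend, with the block or averaging, 2 with a pseudocount of 1, a minimum of 1 or own totals, 3 on the same sum, 6 in one fit over all 4 groups, 5 with voom and 7 by unadjusted p (0 to 10 with a library left out).

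Neighbours called higher with siSRSF1-2 went from 2 to 0 with a pseudocount of 1 and to 1 with a minimum of 1 or one fit over all 4 groups (1 to 2 with a library left out). The other neighbour counts were 0 to 1 lower with siSRSF1-2 and OE-LINC01134 and 0 to 3 higher with siSRSF1-3 with a library left out, the 3 without siSRSF1-3 replicate 3. The cause of these changes was not tested.

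Genes called higher and lower among all tested were 389 and 479 with siSRSF1-2 (177 and 202 with a pseudocount of 1, 604 higher on the same sum, 134 and 180 in one fit over all 4 groups). With siSRSF1-3 they were 58 and 163 (107 higher with a pseudocount of 1, 16 and 47 with 0.01, 24 and 92 without a filter, 32 higher without a trend, 1327 and 1269 by unadjusted p, 11 and 58 on own totals, 1 and 0 on the same sum, 1245 and 1177 in one fit over all 4 groups, 176 and 411 with voom, 0 and 0 averaged, 2192 and 1992 without siSRSF1-3 replicate 3, 0 and 0 without blank replicate 2 or 3 or siSRSF1-3 replicate 2). With OE-LINC01134 they were 45 and 104 (68 lower with a pseudocount of 0.01, 16 and 65 without a filter, 83 higher on the same sum, 29 higher without a trend, 430 and 877 by unadjusted p, 1 and 0 averaged, 174 and 515 in one fit over all 4 groups, 101 and 247 with voom, 511 and 1029 without OE-LINC01134 replicate 2). Same-numbered replicates did not deviate together (correlations from -0.08 to 0.04), so the numbers pair no samples. With a replicate block, 0 and 0 genes passed with siSRSF1-3 and 1 and 3 with OE-LINC01134. Blank levels of PRSS8 and ANKK1 rest on 12 to 24 reads per library, which limits their fold changes.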
